A study of Rattus norvegicus with 8 samples.

Results

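The genes described here are 47 cell cycle and DNA replication genes, chosen by symbol and role, with earlier results of these data known. They cover the kinases, cyclins and spindle proteins of mitosis and the licensing and fork proteins of replication. They also cover the enzymes that supply deoxynucleotides and the regulators of G1 and of the G1/S step. A gene was taken as measured where the RefSeq accession of a probe belonged to it. This held for 36 of the 47 genes, with 37 probes (Kif2c had 2) among the 24684 probes of the array, which named 13888 mRNA genes. For 11 genes no probe was matched, namely Mki67, Top2a, Birc5, Bub1b, Kif11, Mcm3, Mcm4, Mcm5, Tk1, Ccnd3 and Cdk6. The commonly used proliferation markers Mki67 and Top2a are therefore not described by any value here.

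The study profiled a rat model of lung cancer in male F344 rats with the Arraystar rat lncRNA array, a 1-colour Agilent array that also carries mRNA probes. NNK, 4-(methylnitrosamino)-1-(3-pyridyl)-1-butanone, is a carcinogenic nitrosamine of tobacco. At week 95 of treatment 3 lung tumors, which the study's methods call moderately differentiated adenocarcinomas, and 3 matched normal lung tissues were taken from NNK-treated rats, so that the normal lung had been exposed to NNK as well and no lung of an untreated rat was on the arrays. Clot from whole blood of 1 control rat and of 1 NNK-treated rat, also at week 95, made up the other arrays, and the description of the NNK blood sample repeats that of a tumor while its title, source and tissue name blood. How many animals gave the lung tissue or the blood is not stated for the arrays.

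A cell enters the cycle when D-type cyclins with Cdk4 or Cdk6, and then E-type cyclins with Cdk2, release the E2F factors from the retinoblastoma protein. E2F factors switch on the genes of S phase, among them those of the Mcm helicase, which Cdc6 and Cdt1 load onto origins, and of ribonucleotide reductase. The genes of G2 and mitosis follow later, under B-Myb (Mybl2), Foxm1 and the MuvB complex, which reads a promoter element known as the cell cycle genes homology region (CHR), and NF-Y, which binds CCAAT boxes. In adult lung few cells divide, and the RNAs of this group are widely used as a measure of proliferation. In bulk RNA, fewer cells of a type and less RNA per cell cannot be told apart, and the same holds for more cells and more RNA.

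Promoters are shown for 9 genes because the lung results below divide the mitotic genes from part of the replication genes, and these sequences carry the elements by which the groups are known. They are RefSeq sequences of the rat assembly GRCr8, each running from 150 bases before to 50 bases after the annotated start, 5′ to 3′ on the strand of the gene. Capitals mark matches, on either strand, to the CHR (TTTGAA or TTCGAA), the CCAAT box (CCAAT) and the E2F element (TTTGGCGC, TTTGCCGC, TTTCGCGC or TTTCCCGC), and a longer run of capitals is made of overlapping matches. The first 6 genes rose in lung tumor and hold both a CHR and a CCAAT match, and they are all the risen genes found to do so. Mcm6 rose and holds E2F and CCAAT matches, and Mcm2 and Tyms hold an E2F match and did not reach the threshold. The choice leaves out Kif20a, Kif2c and Mybl2, mitotic genes that rose with no CHR match. It also leaves out Mad2l1, which holds a CHR match and did not reach the threshold. Mcm2 holds CHR matches at -215 and -175, before the printed bases. The regions are chr8:79981609-79981808 (minus strand) for Ccnb2, chr20:19265143-19265342 (plus strand) for Cdk1, chr5:137255750-137255949 (minus strand) for Cdc20, chr1:186147508-186147707 (plus strand) for Plk1, chr10:28406277-28406476 (minus strand) for Pttg1, chr1:143659331-143659530 (plus strand) for Prc1, chr13:42404303-42404502 (minus strand) for Mcm6, chr4:122918045-122918244 (minus strand) for Mcm2 and chr9:120776034-120776233 (minus strand) for Tyms.
Ccnb2: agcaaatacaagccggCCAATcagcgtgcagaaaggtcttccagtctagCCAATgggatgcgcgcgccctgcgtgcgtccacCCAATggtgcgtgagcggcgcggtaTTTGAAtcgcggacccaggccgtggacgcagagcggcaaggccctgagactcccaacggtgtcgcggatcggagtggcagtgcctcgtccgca
Cdk1: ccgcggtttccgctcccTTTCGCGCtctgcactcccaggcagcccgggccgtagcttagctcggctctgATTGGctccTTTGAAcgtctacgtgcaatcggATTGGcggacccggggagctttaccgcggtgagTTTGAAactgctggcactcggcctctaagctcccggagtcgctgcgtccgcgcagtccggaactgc
Cdc20: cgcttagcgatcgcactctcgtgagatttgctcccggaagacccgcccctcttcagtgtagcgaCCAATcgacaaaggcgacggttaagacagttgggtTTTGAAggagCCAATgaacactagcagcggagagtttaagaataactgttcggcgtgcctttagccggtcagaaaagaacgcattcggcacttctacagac
Plk1: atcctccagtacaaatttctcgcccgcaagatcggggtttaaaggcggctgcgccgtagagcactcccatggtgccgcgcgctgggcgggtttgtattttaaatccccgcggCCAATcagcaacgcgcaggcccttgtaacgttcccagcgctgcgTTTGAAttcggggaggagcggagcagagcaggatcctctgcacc
Pttg1: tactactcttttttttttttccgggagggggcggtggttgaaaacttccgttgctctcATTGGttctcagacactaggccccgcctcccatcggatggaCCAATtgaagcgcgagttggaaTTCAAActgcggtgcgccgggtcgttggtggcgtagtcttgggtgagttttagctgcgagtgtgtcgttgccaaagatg
Prc1: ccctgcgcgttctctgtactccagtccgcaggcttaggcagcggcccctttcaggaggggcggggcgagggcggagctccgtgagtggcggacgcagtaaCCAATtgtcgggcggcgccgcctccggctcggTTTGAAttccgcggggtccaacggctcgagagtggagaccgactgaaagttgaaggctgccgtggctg
Mcm6: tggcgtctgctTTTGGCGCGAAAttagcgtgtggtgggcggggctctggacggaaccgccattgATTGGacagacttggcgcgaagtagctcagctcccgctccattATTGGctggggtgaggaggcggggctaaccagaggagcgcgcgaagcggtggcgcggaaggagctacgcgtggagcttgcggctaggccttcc
Mcm2: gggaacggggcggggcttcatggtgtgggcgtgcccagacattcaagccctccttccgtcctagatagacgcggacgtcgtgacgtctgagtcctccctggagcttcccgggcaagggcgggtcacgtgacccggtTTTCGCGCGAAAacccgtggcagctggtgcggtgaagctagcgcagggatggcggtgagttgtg
Tyms: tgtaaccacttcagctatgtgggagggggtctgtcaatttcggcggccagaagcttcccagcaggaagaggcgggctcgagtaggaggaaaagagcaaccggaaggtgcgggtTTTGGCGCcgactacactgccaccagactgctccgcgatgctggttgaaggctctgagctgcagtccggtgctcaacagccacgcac

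For the lung comparison the processed signals were quantile-normalized over the 6 lung arrays, and every level below is a normalized log2 signal. A probe was tested where 3 or more of the 6 arrays showed it well above background and 2 or more arrays in each group kept a value after spots with an outlier mark of the scanner software had been left out. Each gene here had 1 spot per probe, so that a mark removed its value. The marks fell on 1 to 3 of the 37 probes on a normal lung array and on 6 to 11 on a tumor array, where they took 15.9% to 25.3% of all spots above background against 4.92% to 8.62% on normal lung arrays. Counts are therefore given also with marked spots kept. By the spread between spots of one probe, the 3 normal lung arrays differed from each other by about as much as repeated spots do (ratios of 0.804 to 1.38), as did tumors 2 and 3 (0.578), while tumor 1 differed from them by ratios of 5.92 and 6.13 and normal from tumor arrays by 23.9 to 34.1. Whether such arrays hold separate samples was not tested, and the counts are also given with each such set averaged and counted as 1 sample, which leaves 1 normal lung against 2 tumors.

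In lung tumor, 17 of the 24 genes tested were up-regulated by 2-fold or more with an adjusted p of at most 0.05 in limma, and 0 were down-regulated. Over all 12471 probes tested, 13.5% were higher and 15.5% lower by this rule, and of the 8637 mRNA probes 11.5% and 16.8%. The rule takes dim signals as measured. Of the 17 genes, Ccnd2 was not well above background in normal lung, and its tumor signal was at least 1.10-fold higher. By the adjusted p alone 22 of the 24 genes passed, 21 of them higher, but so did 65.1% of all probes. At an unadjusted p of 0.05 in limma, without a fold threshold, 1 gene (Aurka) was lower, and the methods' t-test with adjusted p also gave 17 higher and 0 lower. The median log2 difference, tumor minus normal, was 1.54 over the 24 genes and 0.07 over all probes tested. With marked spots kept, 33 genes were tested and 19 rose, the additions being Aurkb and Ube2c, with 0 lower and a median of 1.30, against 13.5% higher and 14.4% lower of all probes and 11.7% and 15.3% of the mRNA probes. With near-identical arrays counted once, 13 of the 24 genes were higher and 0 lower, against 6.31% and 7.92% of all probes, and Ccnd2, Kif2c, Mcm6 and Rrm2 no longer passed. Together with kept spots, 14 of 33 were higher against 6.9%. All 3 tumor arrays lay above all 3 normal arrays for 27 of the 33 genes above the filter and below them for 2, where 38.3% and 34.7% of all such probes did so. The 14 genes under the threshold with marked spots kept were 3 of mitosis (Aurka, Bub1 and Mad2l1), 5 of replication, 2 of deoxynucleotide supply and 4 of G1 and G1/S, as the plot of single arrays shows.

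**Figure D1:**
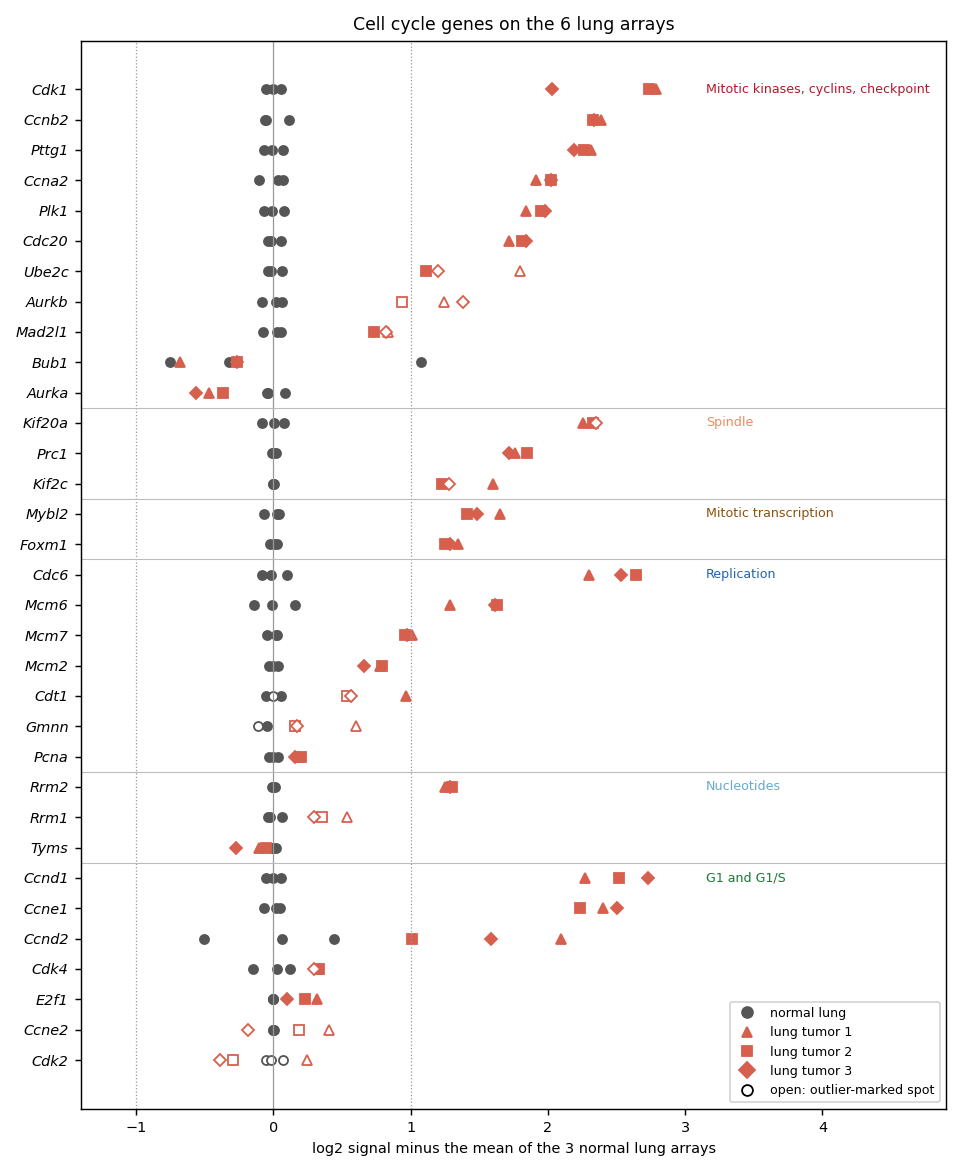
Normalized log2 signal of the 33 genes above the filter on each lung array, minus the mean of the 3 normal lung arrays (x axis, log2), with genes in rows by role. Circles are normal lung and triangles, squares and diamonds tumors 1, 2 and 3; open symbols are spots with an outlier mark, and dotted lines stand at a 2-fold difference. Most mitotic genes lie beyond the right dotted line on every tumor array, while Pcna, Tyms, E2f1, Cdk2 and Ccne2 stay near 0.

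The mitotic genes made up most of the rise. Of 19 with a probe, 16 passed the filter and 13 were tested, of which 11 rose. With marked spots kept it was 13 of 16, with a median log2 difference of 1.64. Among all probes 13.5% rose in each setting. Cdk1, the kinase that drives entry into mitosis, was at 11.56, 11.61 and 11.67 on the normal arrays and at 14.40, 14.35 and 13.64 on the tumor arrays. The groups were far apart, with tumor 3 below the other tumors, and the log2 difference was 2.52 (SE 0.22, n = 3 per group, limma adjusted p = 0.000279), a 5.73-fold higher signal. Its partner cyclin B2 (Ccnb2) was at 11.21, 11.04 and 11.03 in normal lung and at 13.48, 13.42 and 13.43 in tumor. The tumor values of Ccnb2 lay within a narrow band, and the difference was 2.35 (SE 0.07, limma adjusted p = 7.48e-06). Cyclin A2 (Ccna2), which acts in S phase and G2, rose by 1.99 on the log2 scale (SE 0.07, limma adjusted p = 1.44e-05).

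The kinase Plk1, which acts on centrosomes, kinetochores and cytokinesis, rose by 1.92 (SE 0.07). Pttg1, the securin that holds separase inactive until anaphase, rose by 2.25 (SE 0.07), and Cdc20, which activates the anaphase-promoting complex that removes securin, by 1.79 (SE 0.06). The largest limma adjusted p among Plk1, Pttg1 and Cdc20 was 1.35e-05. For each of these the tumor arrays stood above every normal array. Ube2c, the ubiquitin-conjugating enzyme of the same complex, was at 8.50, 8.52 and 8.60 in normal lung and at 10.34, 9.65 and 9.74 in tumor, but 2 of its tumor spots carried a mark and it was not tested. With them kept its difference was 1.37 (SE 0.19, limma adjusted p = 0.00164), and with arrays counted once the adjusted p was 0.0929. Aurkb, the kinase of the chromosomal passenger complex, had all 3 tumor spots marked; kept, they gave 9.49, 9.19 and 9.63 against 8.31, 8.27 and 8.17, a difference of 1.19 (SE 0.12, limma adjusted p = 0.000515; 0.0505 with arrays counted once).

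The other Aurora kinase ran the other way. Aurka, which acts at centrosomes and spindle poles, was at 8.47, 8.46 and 8.59 in normal lung and at 8.04, 8.14 and 7.94 in tumor. All tumor values lay below all normal values, by 0.46 on the log2 scale (difference -0.46, SE 0.08, limma adjusted p = 0.00348), which is short of 2-fold, and the adjusted p was 0.202 with arrays counted once. The checkpoint kinase Bub1 was at 7.03, 8.86 and 7.46 in normal lung and at 7.10, 7.52 and 7.52 in tumor, with normal array 2 above all others. Its difference was -0.40 with a 95% interval from -1.65 to 0.84, and 0.14 without normal array 2. Mad2l1, of the spindle checkpoint, had 2 marked tumor spots, and with these kept it differed by 0.79 (SE 0.06, limma adjusted p = 0.000166), under 2-fold. Cyclin B1 (Ccnb1) was above background on 2 tumor arrays and on no normal array, at 3.65 and 3.74 on tumors 2 and 3, and did not pass the filter.

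Among the spindle proteins, Kif20a, a kinesin of the central spindle, was at 9.66, 9.75 and 9.82 in normal lung and at 12.00, 12.07 and 12.09 in tumor, with the spot of tumor 3 marked. Without that spot the difference was 2.29 (SE 0.08, limma adjusted p = 4.06e-05). Prc1, which bundles the microtubules between the separating chromosomes, rose by 1.77 (SE 0.06, limma adjusted p = 9.39e-06). Kif2c, a kinesin that takes microtubules apart at kinetochores, rose by 1.41 on one probe (SE 0.13, limma adjusted p = 0.000872, 1 tumor spot marked) and by 1.33 on the other (SE 0.13, limma adjusted p = 0.000462), and neither passed with arrays counted once (adjusted p of 0.0683 and 0.0675). Tpx2 and Nusap1, which act in spindle assembly, were not well above background on any of the 6 lung arrays.

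Both transcription regulators of the mitotic genes rose. Foxm1 was at 9.11, 9.06 and 9.09 in normal lung and at 10.43, 10.34 and 10.37 in tumor, a difference of 1.30 (SE 0.05, limma adjusted p = 1.82e-05). Mybl2 was at 6.78, 6.89 and 6.87 against 8.50, 8.26 and 8.33, a difference of 1.52 (SE 0.08, limma adjusted p = 4.47e-05). With arrays counted once both still passed, with adjusted p of 0.0495 and 0.046. The arrays of Foxm1 and Mybl2, given after their values had been seen, did not overlap between the groups.

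The replication genes divided. Of 7 with a probe, 5 were tested and 2 rose, Cdc6 and Mcm6, and this was 2 of 7 with marked spots kept. Of all probes 13.5% rose in each setting, and these few genes were not tested against that share. Cdc6, which loads the Mcm helicase onto origins, was at 6.81, 6.87 and 6.99 in normal lung and at 9.19, 9.53 and 9.42 in tumor. Its difference of 2.49 (SE 0.11, limma adjusted p = 2.26e-05) was among the largest of all the genes. The helicase subunit Mcm6 was at 11.63, 11.50 and 11.80 against 12.93, 13.27 and 13.26, a difference of 1.51 (SE 0.13, limma adjusted p = 0.000285; 0.0616 with arrays counted once). Mcm2, a subunit of the same helicase, was at 12.12, 12.09 and 12.15 in normal lung and at 12.90, 12.91 and 12.78 in tumor. Its groups did not overlap either, but the difference was 0.75 (95% interval 0.60 to 0.89, limma adjusted p = 0.000197), below 2-fold over the whole interval. Mcm7 lay at the threshold with 0.98 (95% interval 0.85 to 1.11), a fold change of 1.97, and passed with the slide as a block (1.01), with all 8 arrays normalized together (1.07) and in the authors' values (1.06).

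Pcna, the sliding clamp of the replication fork, was at 16.18, 16.24 and 16.21 in normal lung and at 16.40, 16.41 and 16.37 in tumor. The tumor arrays were all higher, yet by 0.18 only (95% interval 0.06 to 0.31, limma adjusted p = 0.0219; 0.53 with arrays counted once), a fold change of 1.14. Cdt1, which loads the helicase with Cdc6, and Gmnn, geminin, which holds Cdt1 inactive after origins have fired, had too many marked spots for the test. With these kept, Cdt1 was 0.69 higher (SE 0.13, limma adjusted p = 0.00564) and Gmnn 0.31 higher (SE 0.15, adjusted p = 0.121), both short of 2-fold.

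Of the enzymes of deoxynucleotide supply, the small subunit of ribonucleotide reductase rose and thymidylate synthase did not pass. Rrm2 was at 12.62, 12.60 and 12.61 in normal lung and at 13.86, 13.91 and 13.90 in tumor, a difference of 1.29 (SE 0.05, limma adjusted p = 1.42e-05; 0.0502 with arrays counted once). Rrm1, the large subunit of the same enzyme, had all its tumor spots marked, and with them kept it differed by 0.40 (95% interval 0.19 to 0.60, limma adjusted p = 0.00767). Thymidylate synthase (Tyms) was at 9.43, 9.41 and 9.40 in normal lung and at 9.31, 9.36 and 9.14 in tumor. The tumor arrays lay lower, but the difference of -0.14 (95% interval -0.33 to 0.04, limma adjusted p = 0.134) did not pass the test.

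Among the regulators of G1, 3 cyclins rose and neither kinase measured reached the threshold. Of 7 genes with a probe 4 were tested and 3 rose, Ccnd1, Ccnd2 and Ccne1, and with marked spots kept this was 3 of 7. The share of all probes that rose was 13.5% in each setting. Cyclin D1 (Ccnd1), the partner of Cdk4 and Cdk6, was at 10.51, 10.62 and 10.56 in normal lung and at 12.83, 13.08 and 13.29 in tumor, a difference of 2.51 (SE 0.13, limma adjusted p = 3.74e-05) or 5.69-fold. Cyclin E1 (Ccne1), the partner of Cdk2, was at 8.47, 8.59 and 8.56 against 10.94, 10.77 and 11.04, a difference of 2.38 (SE 0.09, limma adjusted p = 1.41e-05). For both the gap between the groups was many times the spread within them. Cyclin D2 (Ccnd2) was not well above background in normal lung (2.87, 1.92 and 2.49) and was dim in tumor (4.52, 3.44 and 4.01), so that the tumor signal was at least 1.10-fold higher; its fitted difference of 1.56 (limma adjusted p = 0.0127) fell to 0.20 after the normexp background correction and had an adjusted p of 0.108 with arrays counted once.

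The kinase Cdk4 was at 15.23, 15.13 and 14.96 in normal lung and at 15.44, 15.44 and 15.40 in tumor, with 2 tumor spots marked. With these kept it differed by 0.32 (95% interval 0.11 to 0.53, limma adjusted p = 0.018), a fold change of 1.25. Cdk2 had a mark on all 6 spots and cyclin E2 (Ccne2) on all 3 tumor spots; kept, they differed by -0.15 (95% interval -0.59 to 0.30) and 0.13 (95% interval -0.26 to 0.52), and tumor and normal arrays overlapped for both. E2f1, the E2F factor that activates S phase genes, differed by 0.21 (95% interval 0.04 to 0.39, limma adjusted p = 0.043). The interval of each of Cdk4, Cdk2, Ccne2 and E2f1 ended below a 2-fold rise.

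The 3 normal arrays and tumor 1 shared one scan date in the array headers, and tumors 2 and 3 shared another. Arrays with the same scan date were taken as one slide, which no label states. With the slide as a block, where the difference rests on tumor 1 against the normal arrays beside it, 18 of the 24 genes were higher and 0 lower, the addition being Mcm7. Of the 12319 probes tested with the slide block, 1646 were higher and 1628 lower. The median difference of the 24 genes was then 1.68. With the replicate number as a block, by which the labels match each tumor to a normal tissue, 17 genes were higher and 0 lower. Of the 12455 probes tested with the replicate block, 1614 were higher and 1942 lower.

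The promoter matches were counted over the whole RefSeq window of 300 bases, from 250 before to 50 after the start, on both strands. A promoter was listed for 34 of the 47 genes, 11 of them among those that rose in lung tumor (marked spots kept) and 12 among those tested then that did not reach the threshold. A CHR match stood in 6 of the 11 and in 4 of the 12, against 19.7% of 33469 promoters, and a CCAAT match in 8 of the 11 and 5 of the 12, against 37.5%. Both together stood in 6 of the 11 (Ccnb2, Cdk1, Cdc20, Plk1, Pttg1 and Prc1) and in 2 of the 12 (Mcm7 and Rrm1), against 7.95% of all promoters. In Ccnb2, Pttg1, Prc1 and Cdk1 the CHR match nearest the start lay between 43 and 16 bases before it and was preceded by a CCAAT match, as the sequences above show, and in Plk1 the CHR match lay 7 bases after the start. An E2F match, found in 2.14% of all promoters, stood in 2 of the 11 (Cdk1 and Mcm6) and in 5 of the 12 (Mcm2, Mcm7, Cdt1, Gmnn and Tyms). The GC box GGGCGG stood in 9 of the 11 and 9 of the 12, against 33.1%. These are matches of letters in a fixed window, with no test of a difference between the groups.

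**Figure D2:**
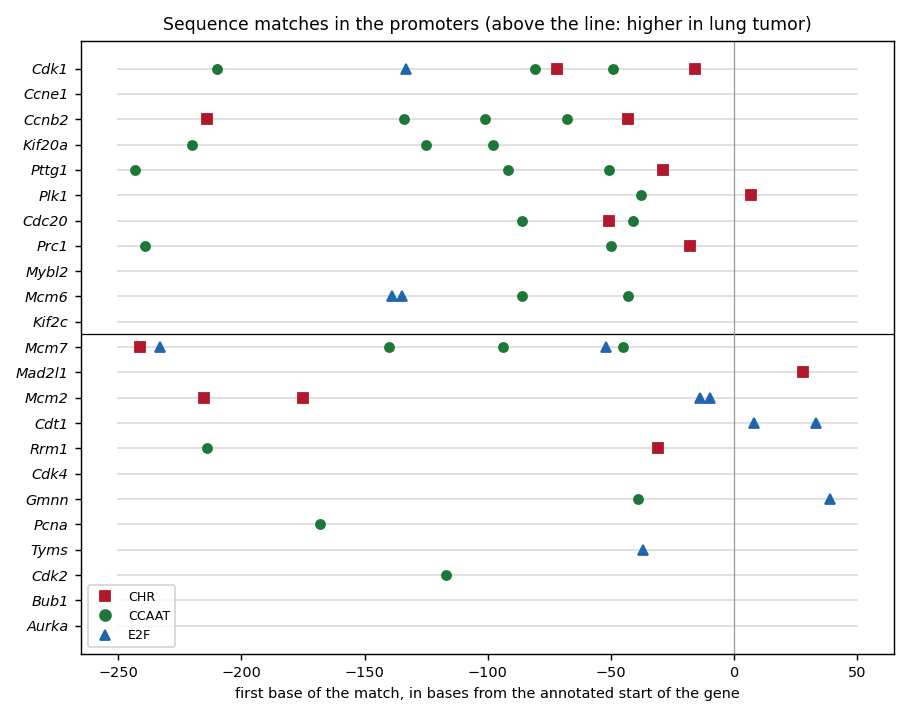
Position of CHR (squares), CCAAT (circles) and E2F (triangles) matches in the promoters of the 23 lung-measured genes with a listed promoter. The x axis is the distance of the first base of the match from the annotated start, in bases, and genes above the horizontal line rose in lung tumor; a row with no symbol had no match. The upper rows hold most of the pairs of CHR and CCAAT, and 5 of the 12 lower rows hold an E2F match.

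A wider list of 173 other cell cycle genes gave 126 with a probe, of which 119 passed the filter and 74 were tested. Of these, 20 rose and 5 fell, where 13.5% of all probes rose and 15.5% fell, and the median was 0.48. Among the 20 were Pbk, E2f7 and Cks1b, which were not well above background in normal lung (values below). With marked spots kept 40 rose and 6 fell of 119 (13.5% and 14.4% of all probes), with a median of 0.62. With arrays counted once it was 12 and 1 of 74 (6.31% and 7.92%), and 25 rose and 3 fell of 119 with spots kept as well (6.9% higher). Other mitosis genes rose in 12 of 20 tests and fell in 0 (23 of 35 with spots kept), with a median of 1.51, while other genes of the replication machinery rose in 5 of 20 and fell in 0 (8 of 32), with a median of 0.69. Mitosis genes thus had the higher share in the wider list too, which was not tested as a difference.

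The largest rises of that list past the threshold were those of Pbk, a mitotic kinase, which was at 3.71, 3.41 and 3.45 in normal lung and at 7.08, 7.25 and 6.89 in tumor. Pbk was not well above background in normal lung, and on the processed signals its tumor signal was at least 9.33-fold higher (limma adjusted p = 1.42e-05). Its fitted difference was 3.55, and 1.37 under normexp. Cdca3, a trigger of mitotic entry, rose by 3.02 (SE 0.07), and Cdca7 by 2.24 (SE 0.07). The kinetochore genes Cenpi and Spc25 rose by 1.91 (SE 0.37) and 1.88 (SE 0.12), and the spindle gene Spag5 by 1.85 (SE 0.12). The largest limma adjusted p of these 5 genes was 0.00627, for Cenpi, which did not pass with the slide as a block (0.057) or with arrays counted once (0.0989). E2f7, an E2F repressor, and Cks1b, a small subunit that binds cyclin-dependent kinases, were not well above background in normal lung. On the processed signals E2f7 and Cks1b were at least 1.23-fold and 1.32-fold higher in tumor. Cks1b did not pass with arrays counted once (adjusted p = 0.071), and under normexp E2f7 and Cks1b differed by 0.28 each.

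The inhibitors of cyclin-dependent kinases moved in both directions. Cdkn1c (p57) was at 14.05, 14.41 and 14.43 in normal lung and at 11.82, 11.70 and 11.80 in tumor, and fell by 2.53 (SE 0.12, limma adjusted p = 3.00e-05); its other probes fell by 2.61 and 2.66. Cdkn2b (p15) fell by 1.12 (SE 0.07, limma adjusted p = 8.07e-05; 0.0627 with arrays counted once). Cdkn2a, the locus of p16 and p19Arf, was at 5.48, 5.09 and 5.14 in normal lung and at 7.04, 7.04 and 7.05 in tumor, a rise of 1.81 (SE 0.11, limma adjusted p = 8.46e-05). Cdkn1a (p21), a target of p53, differed by -0.92 (SE 0.05, limma adjusted p = 5.51e-05) and Cdkn2c by -0.68 (SE 0.06, limma adjusted p = 0.000351), both under 2-fold. Cdkn3 at 0.33 did not pass, and neither did Cdkn1b (p27), at -0.14 with marked spots kept.

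Apart from the inhibitors, 3 genes of the wider list fell past the threshold. Wee1, the kinase that holds Cdk1 inactive, was at 12.92, 12.83 and 12.84 in normal lung and at 11.60, 11.37 and 11.47 in tumor, and fell by 1.38 (SE 0.08, limma adjusted p = 5.58e-05; 0.0531 with arrays counted once). Tfdp2, a partner of E2F factors, fell by 1.25 (SE 0.19, limma adjusted p = 0.00238), with a difference of -0.59 under normexp and an adjusted p of 0.0629 with arrays counted once. Anapc1, a scaffold subunit of the anaphase-promoting complex, fell by 1.04 (SE 0.18, limma adjusted p = 0.00458) but lost the call under 9 of the 20 alternatives. It was short of 2-fold, among others, with the slide as a block (-0.64), under normexp (-0.64), in the authors' values (-0.84), with all 8 arrays normalized together (-0.91), and without tumor 2 (-0.95) or tumor 3 (-0.93), and the adjusted p was 0.182 with arrays counted once. Among genes measured only with marked spots kept, and chosen after their values were seen, the transcription factor Mycn was 3.35 higher (SE 0.34, limma adjusted p = 0.000449; 0.0577 with arrays counted once) and the stress gene Gadd45b differed by -2.12 (SE 0.15, limma adjusted p = 0.000112; 0.04 with arrays counted once). The plot by role sets these groups side by side.

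**Figure D3:**
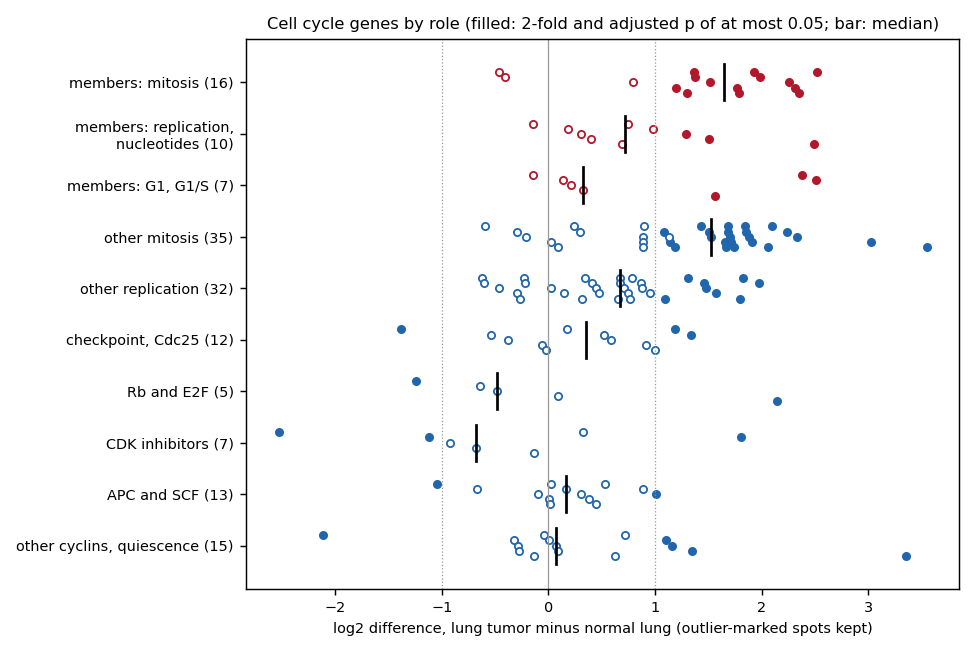
Log2 difference, lung tumor minus normal lung with marked spots kept (x axis), for each gene above the filter, by role; red points are the genes described first and blue points the wider list, with the number of genes in brackets. Filled points passed a fold change of 2 and an adjusted p of 0.05, and a black bar is the median of a group. The medians of the mitosis genes are 1.64 (red) and 1.53 (blue), that of the blue replication genes is 0.67, and the inhibitors of cyclin-dependent kinases spread from -2.53 to 1.81.

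Markers of other cells were set beside these values, as sums of normalized signals over each list. The counts below use the same threshold, by which 13.5% of all probes tested rose and 15.5% fell. With marked spots kept these shares were 13.5% and 14.4%. Each list holds few genes. Type 2 alveolar markers (9 genes on the array) summed to 1084860 to 1131540 in normal lung and to 1331750 to 1371770 in tumor, and 1 of 8 tested was higher. Type 1 alveolar markers summed to 1267200 to 1277460 and to 445793 to 467657, with 4 of 6 lower, and endothelial markers to 280439 to 289141 and to 77738 to 82745, with 3 of 4 lower. Of the blood cells, red cell markers were lower in 5 of 7 tests, T cell markers in 2 of 7, B cell markers were higher in 1 of 5, and 0 of 5 macrophage markers passed. Of the neutrophil markers 0 of 2 tested passed, but 2 of 4 were lower with marked spots kept, and their sum was 14223 to 15045 in normal lung and 3569 to 4355 in tumor. Smooth muscle markers were lower in 1 of 4 tests, and heart muscle markers were higher in 2 and lower in 1 of 4. All 9 liver markers on the array, secreted plasma proteins among them, were lower, with sums of 25521 to 26755 in normal lung and 1656 to 3395 in tumor. Outside the B cell list, Cdh5 (endothelial), Cd4 (T cell), Marco and Cd163 (macrophage), Ltf (neutrophil), and Myl7 and Ryr2 (heart) were not above background on any lung array. The part of cell makeup in the cell cycle values was not tested.

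In blood only 1 array per group was measured, so differences have no replicate check and no test. Levels are log2 signals normalized within the 2 blood arrays. Of the 36 genes, 32 were well above background on at least 1 array. With dim signals taken as measured, 11 of these were 2-fold or more higher in NNK blood, 4 lower and 17 between, and with a signal below background taken as a bound 9 were at least 2-fold higher and 3 lower. Over all 14452 probes compared, with dim signals taken as measured, 23.1% were higher and 19.1% lower, and of the mRNA probes 26% and 17.8%. Shares over all probes by the bound were not computed. The median log2 difference, NNK minus control, was 0.26, against -0.11 over all probes. Among the 25 genes above background on both arrays it was 0.03, with 5 higher and 3 lower, near the shares of 18.1% and 14.9% over all probes above background on both.

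Of the 5 higher genes, Pcna was at 8.67 in control blood and 10.31 in NNK blood, a difference of 1.64, Cdc6 at 5.03 and 6.46 (1.43), and E2f1 at 5.09 and 6.31 (1.22). Cdt1 stood at 6.81 and 8.00 (1.20) and Rrm2 at 9.96 and 11.14 (1.18). Lower were Nusap1 at 7.21 in control and 4.30 in NNK blood (-2.91), Kif2c at 5.35 and 4.27 (-1.08) and Ube2c at 11.74 and 10.72 (-1.03). Only Pcna and Nusap1 of these 8 stayed past 2-fold under every alternative run. Under normexp Cdc6 was at 0.80, Cdt1 at 0.85, E2f1 at 0.56, Kif2c at -0.29 and Ube2c at -0.98, Rrm2 was at 0.56 with the 75th percentile shift, and Ube2c was at -0.74 with all 8 arrays normalized together. Just short of 2-fold were Ccnb2 (8.39 and 7.43) and Tyms (8.24 and 7.31). Cdk1 (9.48 and 10.13), Mcm7 (8.75 and 8.79) and Pttg1 (13.92 and 13.86) differed by less than 2-fold.

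Before normalization the control blood array was dimmer than the NNK blood array, with a median spot signal of 11.8 against 32.0. Spots well above background made up 49.9% and 50.4%. What the difference in brightness did to the blood values was not tested. A further 6 genes were above background in NNK blood and not in control blood. The share of all probes seen only in NNK blood was not counted. By the bound that the background allows, Foxm1 was at least 8.08-fold higher, Gmnn 5.77-fold, Kif20a 5.15-fold, Cdk2 3.25-fold, Ccne2 1.47-fold and Ccnb1 1.08-fold. Tpx2 was above background in control blood, at least 1.25-fold higher there, and not in NNK blood. Ccna2, Mad2l1, Mybl2 and Ccnd2 were not above background on either array. The mitotic genes Foxm1 and Kif20a were thus among the largest rises by this bound. The mitotic genes Nusap1, Kif2c and Ube2c were 2-fold or more lower, while Cdk1 and Pttg1 differed by less than 2-fold. Neutrophil markers summed to 15133 in control and 71309 in NNK blood, and red cell markers to 2097620 and 2041990; their part in the blood values was not tested.

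**Figure D4:**
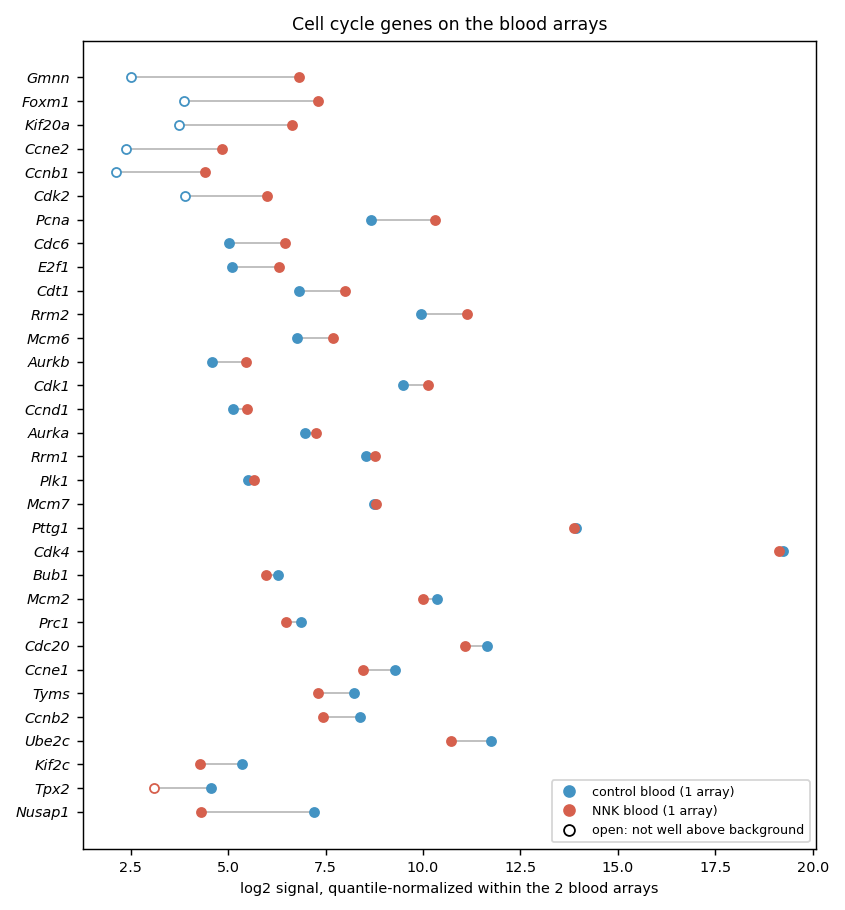
Normalized log2 signal (x axis) of the 32 genes above background on at least 1 blood array, with control blood in blue and NNK blood in red, 1 array each, joined by a line. Open circles were not well above background; rows run from the largest rise at the top to the largest fall. The 6 top rows have an open control value, and Nusap1 at the bottom fell from 7.21 to 4.30.

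Against normal lung, with all 8 arrays normalized together, and dim signals taken as measured, 13 of 33 genes compared were 2-fold or more higher in control blood than the mean of normal lung and 17 lower, shares near the 38.1% and 50% of all probes. In NNK blood 14 of 33 were higher and 11 lower, against 36.2% and 48.6%. High in both bloods were Pttg1 (differences of 6.36 in control and 6.32 in NNK blood), Ube2c (6.26 and 5.52), Cdk4 (4.37 and 4.28), Ccne1 (4.30 and 3.47) and Cdc20 (3.79 and 3.39), each relative to its own level in lung. Low in both were E2f1 (-5.15 and -3.02), Pcna (-3.97 and -2.47) and Ccnd1 (-3.78 and -3.18). Ccna2 and Mad2l1, clearly above background in lung, were not above it in blood. Nusap1 was above background in both bloods and on no lung array.

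**Figure D5:**
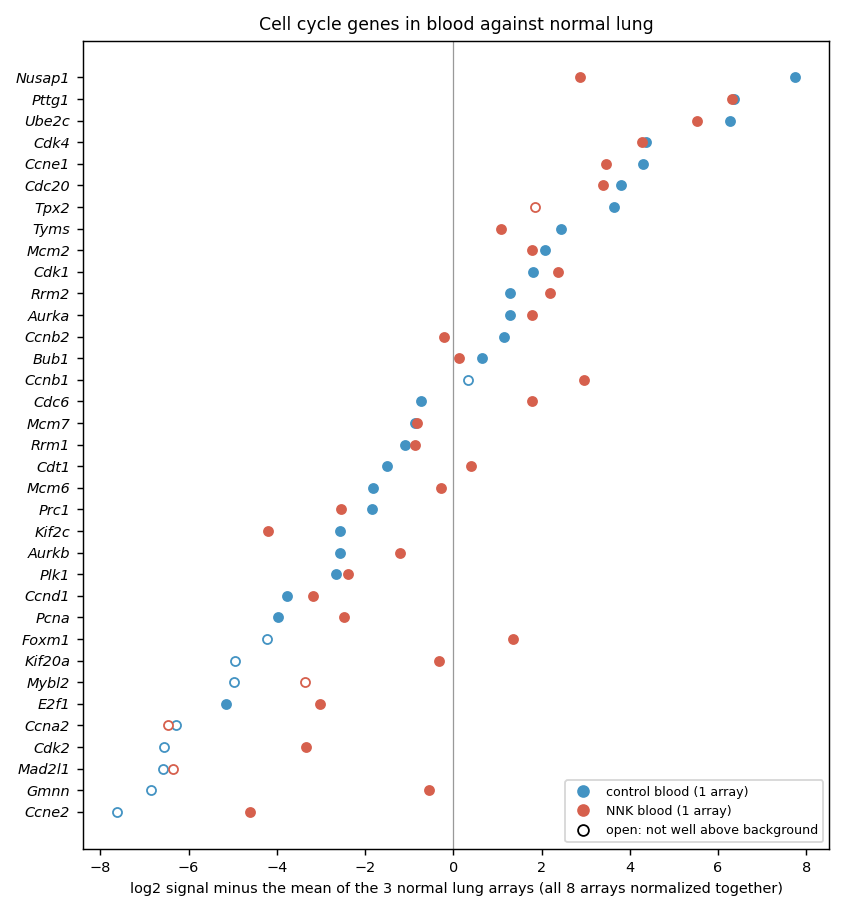
Log2 signal of each gene in control blood (blue) and NNK blood (red) minus its mean over the 3 normal lung arrays (x axis), with all 8 arrays normalized together. Open circles were not well above background on the blood array. Nusap1, Pttg1, Ube2c and Cdk4 stand at the right, and Ccne2, Gmnn, Mad2l1, Cdk2 and Ccna2 at the left in control blood.

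Cdk4 thus stood above and its partner Ccnd1 below its own lung level in both bloods. Cdk1 (1.80) and its partner Ccnb2 (1.15) both stood above their lung levels in control blood. In NNK blood Cdk1 was at 2.37 and Ccnb2 at -0.21 relative to lung. No lung and blood sample is known to come from the same rat, and tissue cannot be told apart from what else differed between these samples. Before normalization the 75th percentile of the spot signal was 95.4 in control blood and 206 in NNK blood. It was 1191 to 1329 on the normal lung arrays, and its part in these differences was not tested.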

How the data were processed

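Total RNA of 3 lung tumors, 3 matched normal lung tissues and 2 blood clots was measured on 8 one-colour arrays. The deposited intensity per spot is the processed signal of Agilent Feature Extraction 10.5.1.1, from which that software had subtracted the background, with no scaling from array to array. A second deposited table holds the authors' log2 values, which GeneSpring quantile-normalized over all 8 arrays; it served as an alternative. Groups came from the sample labels. The number of arrays limits the precision, and where nothing says that samples came from separate animals the p-values measure only the spread between them.

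Probes were named through RefSeq accessions of the assembly GRCr8, in which 14274 of 15323 mRNA probes matched, and the array's own coordinates were not used. The log2 processed signals were quantile-normalized with R 4.3.3 and limma 3.58.1 within the 6 lung arrays, within the 2 blood arrays, and over all 8 arrays for blood against lung. Outlier-marked spots were left out, no spot was saturated, and a probe was kept where over 50% of its spots stood well above background on 3 or more lung arrays, or on 1 or more blood arrays. Of 15803 probes kept in lung, 12471 were tested and 3332 had too few values after the outlier marks. The lung groups were fitted over all probes by lmFit and eBayes, with no term but the group and with Benjamini-Hochberg adjustment, and called at a fold change of 2 and an adjusted p of 0.05. A gene with several probes was counted by its brightest tested probe. A probe not above background in a group was given as a bound, the brighter group's mean against the higher of its own signal and the lowest signal well above background on each dim array. Blood was compared by fold change alone.

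The labels match tumors to normal tissues, so the replicate number was also used as a block. Deviations from the group mean of same-numbered arrays correlated at 0.15, -0.04 and 0.16. Near-identical arrays were judged by the spread between repeated spots of a probe and averaged as an alternative. Further alternatives were a 75th percentile shift, a signal floor of 5, normexp (offset 50), other filters and an unpaired t-test. The slide, taken from the scan date, was also used as a block, and each lung array was left out. The limma fit and its calls were tested on simulated lung values with noise independent between arrays, so near-identical arrays were not covered. The other steps were not simulated.

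The 47 genes, the wider cell cycle list, the marker lists and the motifs were chosen with earlier results of these data known. Array values are given for the 6 genes that rose most and the 6 that fell most past the adjusted threshold and for Pcna, Mcm2, Ccnd1, Ccnd2, Cdk4 and Rrm2 whatever their result, in blood for the 5 that rose most and the 5 that fell most above background on both arrays, and of the wider list the 8 largest rises and falls are named. Array values of other genes were added after they were seen.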

Additional observations from a re-analysis of the deposited data

How the results depend on the processing

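The count of cell cycle genes that rose in lung tumor ranged from 13 to 20 over all alternatives, with 0 lower in each, and leaving out 1 lung array gave 16 to 17. With the replicate block, by which the labels pair tumor and normal tissue, it was 17, with 19 higher in the wider list, and the block ended no call among the named genes. The median difference of the genes in lung was 1.63 with the 75th percentile shift, 1.30 with marked spots kept, 1.22 in the authors' values, 1.68 with the slide block, 1.62 with near-identical arrays counted once and 1.31 with these counted once and marked spots kept, and ranged from 1.45 to 1.64 with 1 array left out. In the wider list 40 genes rose with marked spots kept and 40 in the authors' values, and 12 rose with near-identical arrays counted once. There 3 fell under normexp, 1 with arrays counted once and 3 with arrays counted once and marked spots kept. Leaving out 1 lung array gave 18 to 21 higher and 4 to 5 lower in that list. Bub1 reversed, to 0.14, without normal lung replicate 2, and ranged from -0.78 to 0.14 with 1 array left out. Of the named genes in lung, 700 values under alternatives kept direction and side of the threshold, 30 lost the threshold and 3, all of Mcm7, passed it, while of those in blood 43 moved by no more than 0.0728 (the SD of the median signal of the genes over the normal lung arrays) and 37 by more. In blood 9 genes were lower with the 75th percentile shift, where the median over all probes moved from -0.11 to -0.26. Under normexp 5 were higher and 1 lower, with a median of 0.14; the median was 0.38 with all 8 arrays normalized together. With both arrays above background 5 were higher, with a median of 0.032. Over all probes, 1683 rose and 1929 fell in lung, against 778 and 976 with near-identical arrays counted once, 968 and 1256 under normexp, and 1646 and 1628 with the slide as a block. The cause of these shifts was not tested.

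Signal limits what can be said of Ccnb1, Tpx2 and Nusap1 in lung and of Ccnd2, which lay near background, and outlier marks limited 9 of the 33 genes above the filter. With 1 normal lung against 2 tumors, as remains where near-identical arrays are counted once, limma takes the lone sample to vary like the tumors. Only 1 blood array per group was measured.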
